A study of Mus musculus with 39 samples.

Results

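The 10 enteroendocrine genes described here are Neurog3, Neurod1, Chga, Chgb, Tph1, Gip, Cck, Sct, Gcg and Pyy. They were chosen by gene symbol from the 53465 rows of a gene-level RNA-seq table of 39 mouse libraries, and each symbol had 1 row. The study behind it profiled myeloid-derived suppressor cells, which are immature cells of the myeloid line known for holding T cells back, in a granulocytic (G) and a monocytic (M) kind. Its 13 groups hold 3 libraries each. The intestines of mice heterozygous for the mutant APCmin allele (APCmin/+), which develop intestinal adenomas, gave single cells of the tissue, a G sort, an M sort and a combined (G+M) sort. The spleens of APCmin/+ mice gave the same 3 sorts, as did spleens of immune-deficient BALB/c mice. Bone marrow of C57BL/6 mice, labelled newborn at P7, gave all single cells, a G sort and an M sort. The sources used here do not give the markers of the sorts, the stretch of intestine taken, the ages of the APCmin/+ and BALB/c mice, the defect of the BALB/c mice, or whether the 3 libraries of a group came from separate animals. P-values therefore measure only the spread between these libraries, which may be technical.

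Enteroendocrine cells are scattered, hormone-secreting cells of the gut epithelium. They arise in the crypts from progenitors that switch on the transcription factor Neurog3 and then Neurod1, and they store peptides in dense-core granules whose matrix contains the chromogranins Chga and Chgb. Cells of the upper small bowel are known for Gip, Cck and Sct, cells of the ileum and colon for Gcg, which encodes the glucagon-like peptides, and for Pyy, while enterochromaffin cells throughout the gut make serotonin with the enzyme Tph1.

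The sequences just upstream of the 5 peptide hormone genes are shown because these genes differ most along the gut and because Neurog3 and Neurod1, as basic helix-loop-helix factors, bind E-boxes. Each line holds the 250 bases before the start site in the RefSeq annotation of GRCm38.p6, read 5′ to 3′ on the gene's own strand, with each E-box (CANNTG, which reads the same pattern on both strands) in capitals. All 10 members matched a RefSeq promoter.
Gip, plus strand, chr11:96024295-96024544: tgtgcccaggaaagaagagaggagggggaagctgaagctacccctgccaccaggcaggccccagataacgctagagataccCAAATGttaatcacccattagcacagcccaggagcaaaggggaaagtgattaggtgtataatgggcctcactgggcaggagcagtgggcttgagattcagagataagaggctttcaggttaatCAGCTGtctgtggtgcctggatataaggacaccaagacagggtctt
Cck, minus strand, chr9:121495695-121495944: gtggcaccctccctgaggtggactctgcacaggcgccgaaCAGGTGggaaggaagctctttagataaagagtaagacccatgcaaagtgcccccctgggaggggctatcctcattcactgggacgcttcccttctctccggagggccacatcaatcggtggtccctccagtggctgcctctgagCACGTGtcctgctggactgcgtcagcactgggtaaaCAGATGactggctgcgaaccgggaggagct
Sct, minus strand, chr7:141279134-141279383: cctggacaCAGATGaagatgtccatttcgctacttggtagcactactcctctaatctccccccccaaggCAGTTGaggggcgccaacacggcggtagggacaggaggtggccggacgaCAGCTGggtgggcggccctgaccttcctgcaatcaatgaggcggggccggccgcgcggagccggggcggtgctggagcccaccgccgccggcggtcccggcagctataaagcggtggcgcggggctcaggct
Gcg, minus strand, chr2:62483654-62483903: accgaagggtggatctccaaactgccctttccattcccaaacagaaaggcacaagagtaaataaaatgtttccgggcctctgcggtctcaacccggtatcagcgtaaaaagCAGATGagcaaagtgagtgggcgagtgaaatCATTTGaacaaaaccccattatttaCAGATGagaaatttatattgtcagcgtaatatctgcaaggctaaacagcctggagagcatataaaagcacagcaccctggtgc
Pyy, minus strand, chr11:102107833-102108082, the more upstream of its 2 annotated starts: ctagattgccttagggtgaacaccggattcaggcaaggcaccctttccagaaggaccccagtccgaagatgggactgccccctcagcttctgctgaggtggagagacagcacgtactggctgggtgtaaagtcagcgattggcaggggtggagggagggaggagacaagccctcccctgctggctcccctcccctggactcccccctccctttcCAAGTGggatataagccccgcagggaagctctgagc
E-boxes numbered 2 upstream of Gip, 3 upstream of each of Cck, Sct and Gcg, and 1 upstream of Pyy. Of the 12 promoter windows of the 10 members, 10 held an E-box upstream of the start, and neither window of Tph1 did. Of 32851 RefSeq mouse promoters, 66.2% held at least 1 such match in the same 250 bases, so a match by itself is common. The motif TATAAA, searched on both strands, cannot overlap an E-box, which begins with C and ends with G. On the gene's strand it began at position -24 from the start of Gcg and at -28 from that of Sct. A match on the other strand lay upstream of Gcg, with its leftmost base at -72. It was not found in the windows of Gip, Cck or Pyy, and was held by 12.4% of all promoters. A match is a description of letters and not of a bound site.

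Values are in TPM, shares of a library's transcripts that allow for transcript length and add up to 1000000 in every library. They keep no read numbers, so neither a depth nor a counting interval can be stated. A library held 21551 to 24910 genes above 0. The intestinal libraries, including those labelled as myeloid sorts, all carried abundant epithelial RNA. The summed TPM of 20 epithelial genes, such as Krt8 and Lgals4, was 14384 to 19256 in all intestinal cells, 14376 to 18592 in the G+M sorts, 18818 to 21245 in the G sorts and 17303 to 18238 in the M sorts, against 37.6 to 167 in the 27 libraries of spleen and marrow. The summed TPM of 10 leukocyte and myeloid genes was 300 to 6043 in the 12 intestinal libraries and 9617 to 101047 in the others. Most of the mean intestinal sums came from a single gene of the 10, Jchain. Its mean TPM was 2465 in all cells, 999 in the G+M sort, 382 in the G and 4948 in the M sort. The mean sums were 2795, 1200, 661 and 5599 in the same order. In a bulk sample, fewer cells of a type and less RNA per cell cannot be told apart.

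All 10 genes were transcripts of the intestine in this series. Their summed TPM was 141 to 261 in the 12 intestinal libraries and 0.02 to 1.6 in the 27 libraries of spleen and marrow. Outside the intestine, 9 of the 10 stayed at a TPM of 0.51 or less in every library. The exception was Chga, which had a mean TPM of 1.04 ± 0.171 (SD, n = 3) in all marrow cells, with 1.23 in its highest library, and means of 0.04 and 0.08 in the M and G sorts of marrow. Chga is a granule protein of many secretory cells, and in the marrow the other granule protein, Chgb, had a mean TPM of only 0.0633 ± 0.0252 (SD, n = 3). Neurod1, Neurog3 and Cck were listed at 0 in 25 of the 27 libraries of spleen and marrow.

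**Figure D1:**
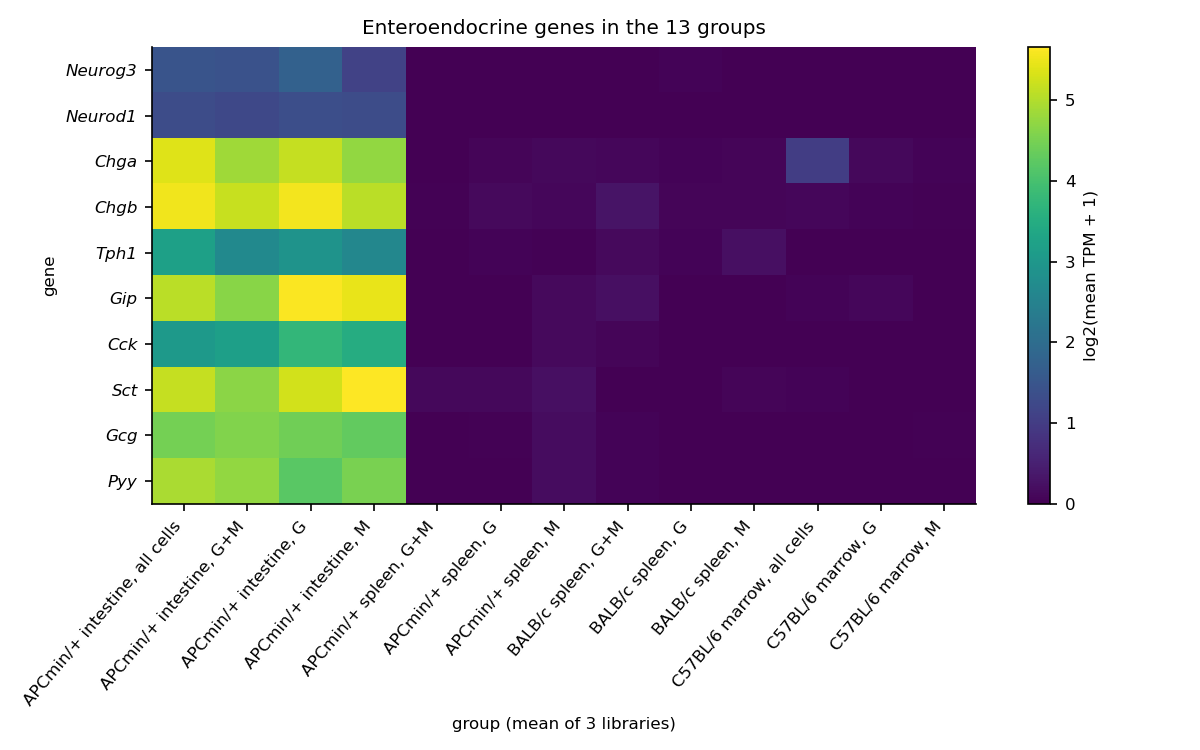
Heatmap of the 10 enteroendocrine genes (rows) in the 13 groups (columns); colour gives log2(mean TPM + 1) over the 3 libraries of a group. The 4 intestinal groups hold nearly all of the signal, and the brightest cell outside them is Chga in all cells of C57BL/6 marrow, at a mean TPM of 1.04.

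Each intestinal sort was compared with the same sort of APCmin/+ spleen, which asks how the tissue rather than the sort relates to these genes. The members passed the filter for testing through intestinal libraries, since outside the intestine only Chga reached a TPM of 1, in 1 library. With levels near 0 in spleen their calls were fixed in advance, so the counts below describe the tissues and support no further conclusion. All 10 were higher in intestine for the G sorts, where 18.7% of the 18466 genes tested were called higher, for the M sorts, where 14.2% were, and for the combined sorts, where 19.5% were. Calls required an adjusted p under 0.05 together with a difference of at least 1 in mean log2(TPM + 1). The largest of the 30 adjusted p-values by limma over all genes was 2.61e-09, for Neurog3 in the M sorts. The spread in that fit is estimated with libraries of spleen and marrow in which these genes are at or near 0, which limits what these p-values mean. Libraries of intestine and spleen did not overlap for any member in any of the 3 comparisons, against 28.7%, 21.8% and 30.3% of all genes lying above without overlap. Chgb had a mean TPM of 46.3 in the intestinal G sort and 0.0967 in the splenic G sort, and many of the splenic values of the other members were listed at 0, so folds are not given. The epithelial genes moved with this difference, 20 of 20 being called higher in each of the 3 comparisons, and their part in it was not tested.

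**Figure D2:**
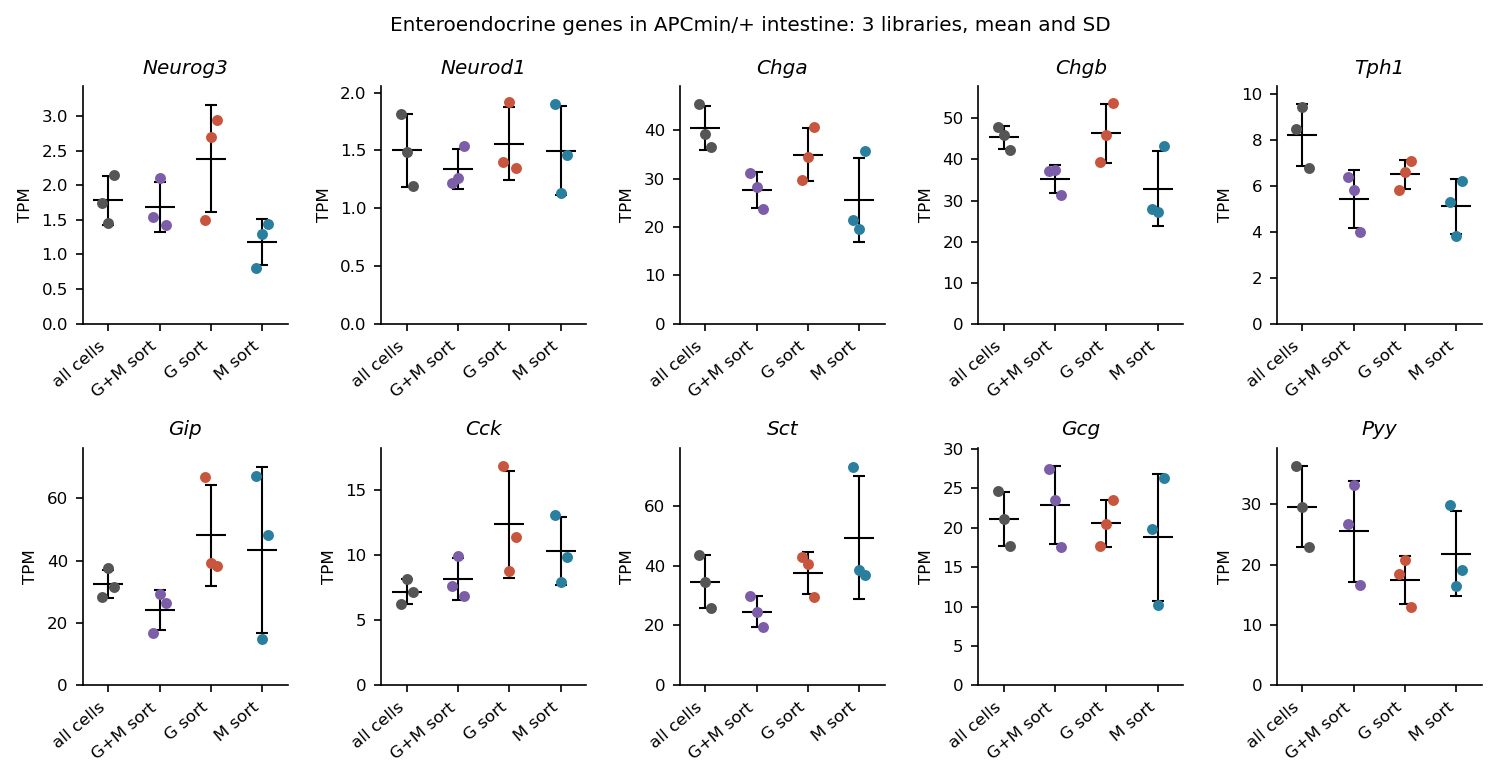
TPM of the 10 genes (1 panel each, axes from 0) in the 12 intestinal libraries; points are libraries, the horizontal line is the mean of 3 and the bar 1 SD. Chga in the G+M sort lies below all cells in each library, Cck in the G sort lies above all cells, and the M sort has the widest spread for Gip, Sct and Gcg.

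The 2 transcription factors, which act before the hormones are made, were the rarest of the 10. Neurog3 (ENSMUSG00000044312, chr10:62133090-62134763, plus strand) marks the short-lived progenitors. Its TPM in the 3 libraries was 1.74, 1.45 and 2.15 in all cells, 1.54, 2.1 and 1.43 in the G+M sort, 1.5, 2.7 and 2.94 in the G sort, and 0.8, 1.29 and 1.44 in the M sort. The M sort lay below both the G sort and all cells in every library. The difference in mean log2(TPM + 1) was 0.62 (95% interval 0.37 to 0.87, limma, 39 libraries, adjusted p = 0.00125), under the size needed for a call. With the 12 intestinal libraries fitted alone the interval was 0.18 to 1.06 (adjusted p = 0.143). The order of the group means was G sort, all cells, G+M sort and M sort, and neighbours in that order overlapped.

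Neurod1 (ENSMUSG00000034701, chr2:79452521-79456751, minus strand), which acts downstream of Neurog3, varied least of the 10. Its TPM was 1.82, 1.49 and 1.19 in all cells, 1.22, 1.26 and 1.54 in the G+M sort, 1.4, 1.92 and 1.35 in the G sort, and 1.9, 1.13 and 1.46 in the M sort. All 4 groups overlapped, and the highest library of the 12 held 1.7 times the lowest. In the fit of 12 libraries its 6 differences between groups lay between -0.12 and 0.04, with no interval reaching beyond 0.45 in size. Neurod1 shares its span with Cerkl on the same strand and Gm26755 on the other, and Neurog3 with Fam241b on the other strand in GENCODE M21. The sources used here do not say whether the counting used strand, so reads of these overlapping genes may be mixed.

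The granule proteins and the serotonin enzyme had their highest means in all intestinal cells or in the G sort and lower ones in the G+M and M sorts. Chga (ENSMUSG00000021194, chr12:102554969-102565028, plus strand), the usual pan-endocrine marker, had a TPM of 45.4, 39.3 and 36.7 in all cells, 31.2, 28.3 and 23.7 in the G+M sort, 29.7, 34.6 and 40.6 in the G sort, and 21.5, 19.7 and 35.7 in the M sort. Every library of the G+M and M sorts lay below every library of all cells, while the G sort overlapped with all other groups. Between the M sort and all cells the difference was -0.68 (95% interval -0.98 to -0.39, limma, 39 libraries, adjusted p = 9.28e-04). It was the only one of the 60 differences between intestinal groups, 10 genes in 6 comparisons, with an adjusted p under 0.05 in the 12 libraries alone (interval -1.15 to -0.21, adjusted p = 0.0495). Rescaling libraries by median ratios, which moved the median of all genes in this comparison from -0.27 to -0.02, brought it to -0.37 (adjusted p = 0.0431). Between the G+M sort and all cells it was -0.53 (adjusted p = 0.021 with 39 libraries, 0.317 with 12).

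Chgb (ENSMUSG00000027350, chr2:132781278-132795079, plus strand), the second granule protein, had a TPM of 47.9, 46 and 42.3 in all cells, 37.2, 37.4 and 31.4 in the G+M sort, 39.4, 46 and 53.6 in the G sort, and 28, 27.1 and 43.4 in the M sort. The G+M sort lay below both all cells and the G sort without overlap, and the third M library lay among all cells while the other 2 lay below. Between the G and M sorts the difference was 0.51 (95% interval 0.23 to 0.78, limma, adjusted p = 0.019 with 39 libraries, 0.166 with 12). Tph1 (ENSMUSG00000040046, chr7:46644641-46672537, minus strand), the first enzyme of serotonin synthesis, had a TPM of 8.49, 9.44 and 6.77 in all cells, 6.42, 5.85 and 4 in the G+M sort, 5.84, 6.61 and 7.09 in the G sort, and 5.32, 3.82 and 6.22 in the M sort. Both the G+M and the M sort lay below all cells in every library. The differences were -0.53 for the G+M sort (limma, adjusted p = 0.0144 with 39 libraries, 0.276 with 12) and -0.60 for the M sort (adjusted p = 0.00188 with 39 libraries, 0.0585 with 12).

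Mast cells also make Tph1, and their transcripts also differed between these groups. The mean TPM of the mast cell protease Mcpt1 was 48 in all cells, 4.51 in the G+M sort, 19.3 in the G and 38.2 in the M sort. In the G+M sort against all cells, 4 of 12 mast cell and basophil genes fell and none rose, namely Mcpt1 with a difference of -3.14 (limma, adjusted p = 1.68e-06), Mcpt2, Cpa3 and Tpsb2. Mcpt1 and Mcpt2 also fell in the G sort, and none of the 12 was called in the M sort. The calls of these proteases were lost with the 12 libraries alone, those in the G sort also without the first G library, that of Mcpt2 there without the second library of all cells, and that of Tpsb2 without the second library of all cells or the first or the third G+M library, and the part of mast cells in Tph1 was not tested. The summed TPM of the 12 genes was 77.5 to 149 in all cells, 25.5 to 42.4 in the G+M sort, 25.8 to 76 in the G sort and 56.7 to 101 in the M sort, and the basophil protease Mcpt8, picked after its values were seen, was at or near 0. The ratio of Tph1 to Chga had means of 0.204, 0.194, 0.188 and 0.205 in all cells, the G+M, the G and the M sort. Single libraries ranged from 0.18 to 0.24, 0.17 to 0.21, 0.17 to 0.20 and 0.17 to 0.25 in the same order.

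The 3 hormones of the upper small bowel had higher means in the G and M sorts than in all cells or in the G+M sort. Gip (ENSMUSG00000014351, chr11:96024545-96030831, plus strand), the incretin of K cells, had a TPM of 28.4, 37.5 and 31.7 in all cells, 16.8, 29.2 and 26.5 in the G+M sort, 66.8, 39.1 and 38.4 in the G sort, and 67.2, 14.8 and 48.3 in the M sort. The G sort lay above both all cells and the G+M sort without overlap, and the M sort held both the highest and the lowest library of the 12. The G+M sort differed from the G sort by -0.95 (95% interval -1.55 to -0.36, limma, adjusted p = 0.0514 with 39 libraries, 0.472 with 12). Cck (ENSMUSG00000032532, chr9:121489824-121495694, minus strand), the I cell hormone that empties the gall bladder, had a TPM of 6.26, 8.18 and 7.17 in all cells, 7.64, 9.96 and 6.86 in the G+M sort, 16.9, 8.78 and 11.5 in the G sort, and 13.1, 7.98 and 9.9 in the M sort. Its G sort lay above all cells without overlap, by 0.67 in mean log2(TPM + 1) (95% interval 0.35 to 0.99, limma, adjusted p = 0.00327 with 39 libraries, 0.123 with 12). Without the first G library, the highest of the 12, the difference was 0.43 (adjusted p = 0.0725).

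Sct (ENSMUSG00000038580, chr7:141278330-141279133, minus strand), secretin, drives bicarbonate secretion. Its TPM was 43.7, 34.4 and 25.9 in all cells, 29.9, 24.4 and 19.5 in the G+M sort, 42.9, 40.5 and 29.7 in the G sort, and 73.1, 38.5 and 36.7 in the M sort. The G+M sort lay below the M sort without overlap, and all other pairs of groups overlapped. Libraries of equal number correlated for these groups, weakly between the G+M and G sorts, and are not known to be true pairs. Between them, Sct was lower in the G+M sort in 3 of 3 pairs against all cells and in 3 of 3 against the G sort. Against all cells the difference was -0.47 (limma, adjusted p = 0.241, or 0.109 with a replicate block). Against the G sort it was -0.60 (adjusted p = 0.0768, or 0.0266 with the block). That block gave each number the same effect in all APCmin/+ libraries, including those of spleen, where Sct is near 0. The difference between the G+M and M sorts was -0.93 (95% interval -1.33 to -0.53, limma, adjusted p = 8.46e-04 with 39 libraries), just under the size needed for a call. Sct was called lower after rescaling (-1.15, adjusted p = 3.82e-04) and without the first G+M library (-1.07), the second M library (-1.07) or the third M library (-1.10). In the 12 libraries alone its adjusted p was 0.0603.

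The hormones of the distal gut did not share this order. Gcg (ENSMUSG00000000394, chr2:62474530-62483650, minus strand), the L cell precursor of GLP-1 and GLP-2, had a TPM of 24.6, 21.1 and 17.8 in all cells, 27.5, 23.6 and 17.6 in the G+M sort, 17.7, 20.5 and 23.5 in the G sort, and 19.9, 10.2 and 26.3 in the M sort. All 4 groups overlapped, and the 6 differences in the fit of 12 libraries lay between -0.24 and 0.34. Pyy (ENSMUSG00000017311, chr11:102106676-102107832, minus strand), the L cell peptide that slows the ileum, had a TPM of 36.4, 29.6 and 22.9 in all cells, 26.8, 33.2 and 16.6 in the G+M sort, 18.5, 20.8 and 13 in the G sort, and 29.8, 16.5 and 19.2 in the M sort. Every G sort library lay below every library of all cells. That difference was -0.73 (95% interval -1.12 to -0.35, limma, adjusted p = 0.00676 with 39 libraries, 0.165 with 12), and without the third G library it was -0.55 (adjusted p = 0.065).

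The balance of the 2 regions was read as the summed TPM of Gip, Cck and Sct over that of Gcg and Pyy, which cancels any factor shared by all endocrine transcripts of a library. The ratio was 1.28, 1.58 and 1.59 in all cells, 1, 1.12 and 1.54 in the G+M sort, 3.5, 2.14 and 2.18 in the G sort, and 3.09, 2.3 and 2.09 in the M sort. All 6 libraries of the single sorts lay above all 6 of the other groups, and the ratio is given as a description with no test. In the deposited values the libraries of all cells and the G+M sort are numbered together. Those of the G and M sorts are numbered in a later set with the single sorts of APCmin/+ spleen. What this numbering marks is not in the labels, and it cannot be told apart from the kind of sort here. Single pairs of hormones differed in this. The single sorts lay apart from the other groups for Sct over Pyy, at 1.13 to 1.2 in all cells, 0.736 to 1.17 in the G+M sort, 1.94 to 2.32 in the G sort and 1.92 to 2.45 in the M sort. They also lay apart for Cck over Pyy, at 0.422 or more against 0.413 or less. Gip over Pyy was 0.78 to 1.38 in all cells, 0.627 to 1.59 in the G+M sort, 1.88 to 3.61 in the G and 0.897 to 2.52 in the M sort, so that the M sort overlapped with both other groups. Gip over Gcg was 1.15 to 1.78 in all cells, 0.612 to 1.51 in the G+M sort, 1.63 to 3.78 in the G and 1.45 to 3.38 in the M sort, where both single sorts overlapped with all cells. With Sct left out, the ratio was 0.568 to 0.955 in all cells, 0.45 to 0.975 in the G+M sort, 1.16 to 2.31 in the G sort and 0.853 to 1.62 in the M sort. The second M library then lay among the libraries of all cells, and the M sort was no longer apart.

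**Figure D3:**
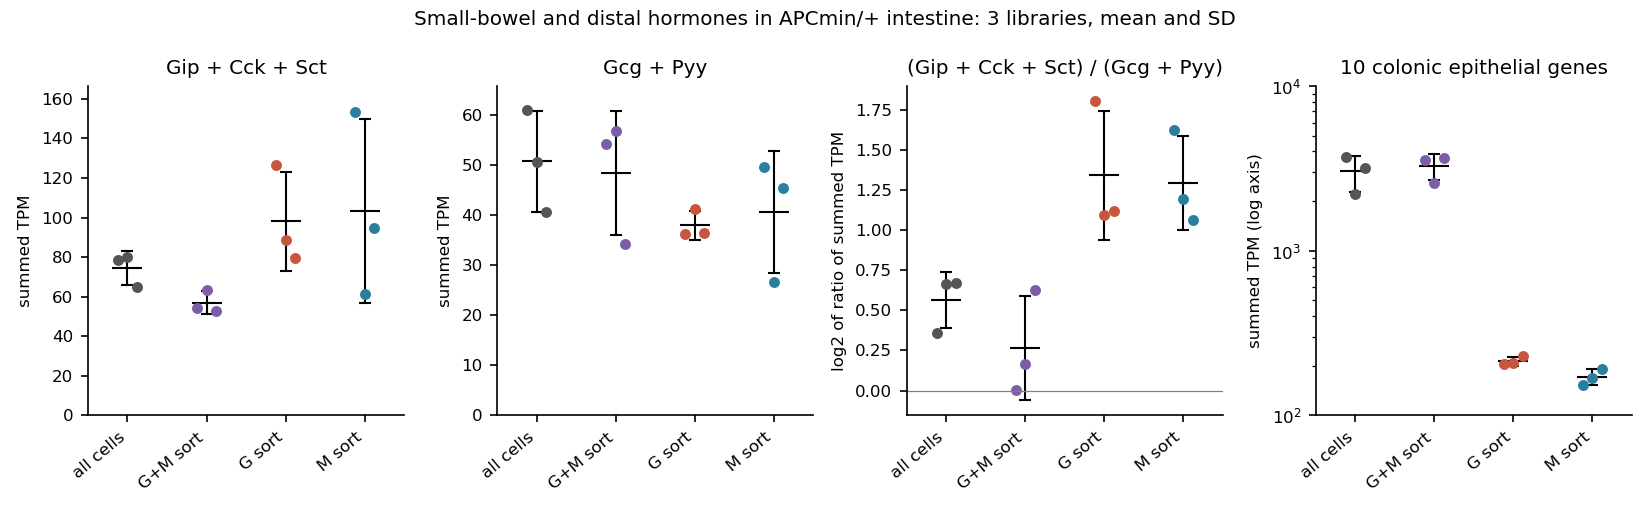
From left to right, summed TPM of Gip, Cck and Sct, summed TPM of Gcg and Pyy, log2 of their ratio, and summed TPM of 10 colonic epithelial genes on a log axis, in the 12 intestinal libraries; points are libraries, lines and bars mean and SD of 3. The ratio separates the G and M sorts, at 2.09 or more before taking logs, from all cells and the G+M sort, at 1.59 or less, and the colonic genes separate the same libraries.

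The colonic genes of the epithelium divided the 12 libraries the same way. The small-bowel genes had higher medians in both single sorts, but their sums did not set the M sort apart. Of 10 colonic genes, 9 were tested, and 9 of 9 fell in both the G sort and the M sort against all cells and rose in the G+M sort against each single sort, while none was called between the G+M sort and all cells. The mean TPM of Car1, the carbonic anhydrase of the colon surface, was 1181 in all cells and 1113 in the G+M sort, but 0.863 in the G and 0.317 in the M sort. Hoxb13, a homeobox gene of the most distal colon that was picked after its values were seen, had 33.8, 39.1 and 0.0133 in all cells, the G+M and the M sort, and was listed at 0 in all 3 G libraries. The summed TPM of the colonic genes was 2217 to 3691 in all cells, 2591 to 3640 in the G+M sort, 203 to 228 in the G sort and 154 to 192 in the M sort. Of 12 small-bowel genes, 2 rose in the M sort against all cells, Apoc3 and Alpi, and none was called in the G sort. Both calls in the M sort were lost with a pseudocount of 0.1, with only the 2 groups compared, with epithelial scaling, without the second library of all cells and without the first M library. The call of Apoc3 was also lost with no filter, with the replicate block, with the 12 libraries alone, and without the first library of all cells or the third M library. The summed TPM of the small-bowel genes was 12209 to 18744, 11857 to 17561, 19186 to 26429 and 14158 to 21350 in the same order. These labels are regional genes of the whole epithelium, and their part in the hormone ratio was not tested.

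Insl5, a hormone of colonic L cells that was picked after its values were seen, followed the colonic genes. Its mean TPM was 5.28 ± 2.5 (SD, n = 3) in all cells, 3.91 ± 1.04 in the G+M sort, 0.05 in the G sort, where it was listed at 0 in 2 libraries, and 0.37 in the M sort. Against all cells it was called lower in the G sort (-2.51, limma, adjusted p = 1.29e-10) and likewise in the M sort (-2.19, adjusted p = 1.81e-09). For Gcg and Pyy, which ileal L cells make as well, the lowest library of the single sorts held 10.2 and 13 TPM.

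**Figure D4:**
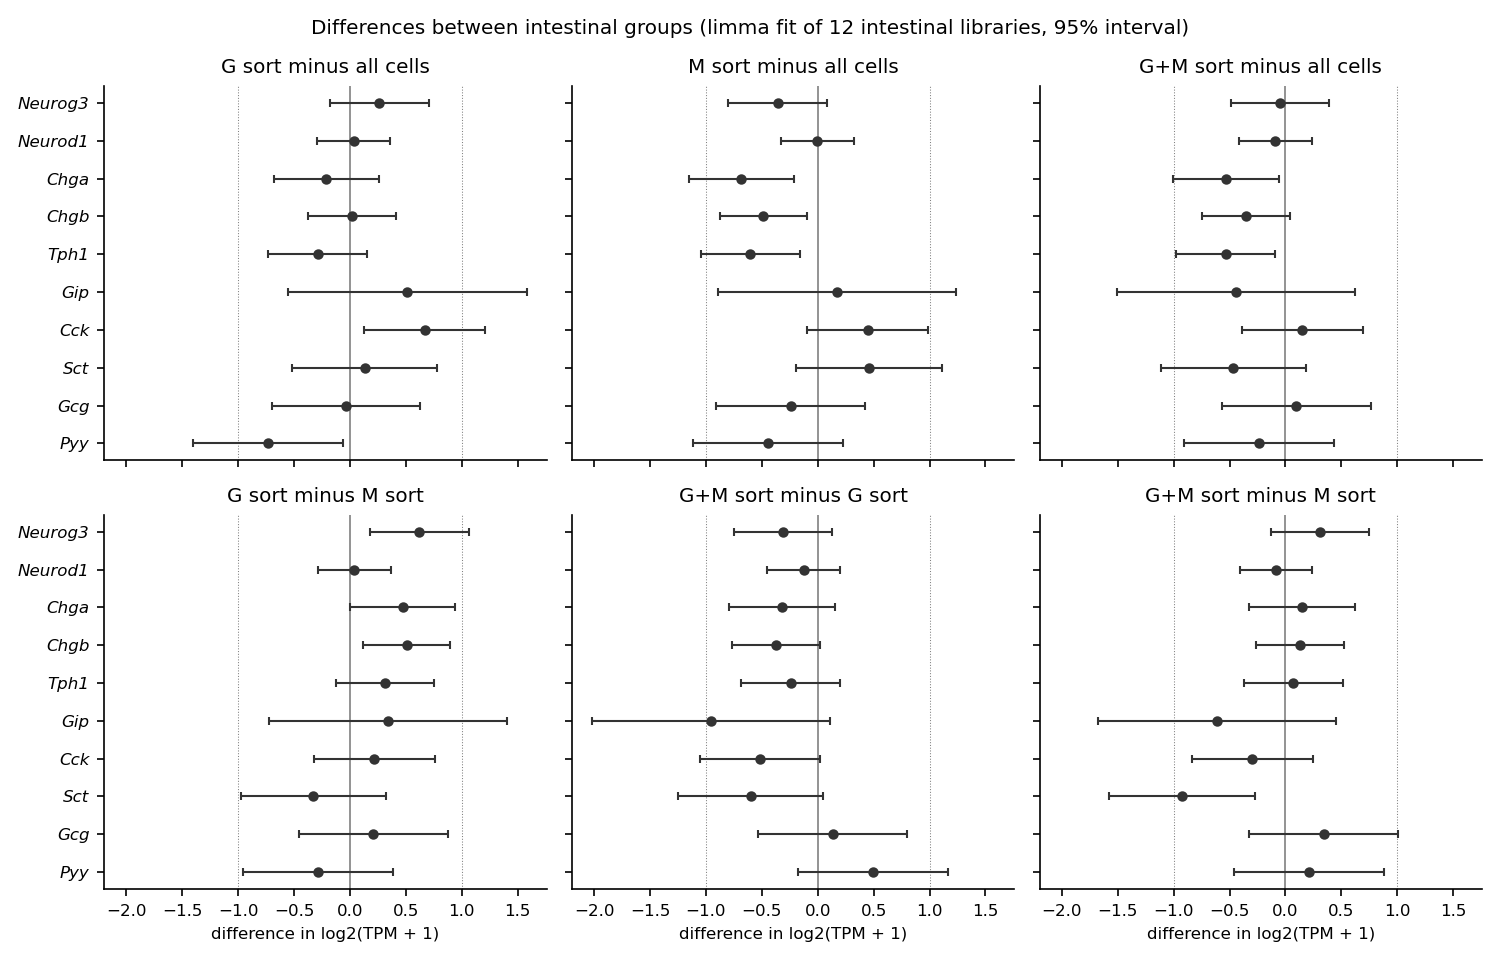
Differences in mean log2(TPM + 1) with 95% intervals for the 10 genes in the 6 comparisons among intestinal groups, from limma fitted to the 12 intestinal libraries; the solid line marks 0 and the dotted lines the size of 1 needed for a call. Chga in the M sort against all cells, at -0.68, is the only difference here with an adjusted p under 0.05, and Gip has the widest intervals.

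Across the 6 comparisons among intestinal groups, which share groups with one another, no member was called in any. The background of genes called in either direction was 5.38% for the G sort against all cells, 4.42% for the M sort, 3.24% for the G+M sort, 2.83% for the G against the M sort, and 1.94% and 6.49% for the G+M against the G and the M sort. At an unadjusted p under 0.05, limma with 39 libraries gave 4, 7, 4, 4, 7 and 3 members in the same order. The percentages above are for calls and do not apply at that threshold. The share of all genes there is not given, so these counts show neither an excess nor the lack of one. Members lying without overlap numbered 2 above and 1 below in the G sort against all cells (3.81% and 23.2% of all genes), 3 below in the M sort (38.1%) and 3 below in the G+M sort (17.7%). They numbered 1 above in the G against the M sort (14.6%), 2 below in the G+M against the G sort (7.03%) and 1 below against the M sort (10.1%). Libraries of equal number were also set side by side in the 3 comparisons where they correlated above 0.1, though it is not established that they are pairs. In the G+M sort against all cells, 5 members were lower in 3 of 3 pairs (Chga, Chgb, Sct, Tph1 and Gip), as were 43.9% of all genes. In the G against the M sort, 5 were higher in 3 of 3 pairs (Chga, Chgb, Neurog3, Cck and Tph1), as were 45.9% of all genes. In the G+M against the G sort, 3 were lower in 3 of 3 pairs (Chgb, Sct and Gip; 12.9% of all genes) and 1 was higher (Pyy; 17.8%). The median difference of the members was 0.03, -0.30, -0.30, 0.27, -0.32 and 0.10 in that order, beside -0.14, -0.27, -0.09, 0.14, 0.01 and 0.15 over all genes. In the fit of 39 libraries the spread of a gene is estimated with 27 libraries in which these genes are at or near 0. The standard error of a Chga difference was 0.143 there and 0.211 in the 12 libraries alone, and the members with an adjusted p under 0.05 numbered 14 of 60 in the first and 1 of 60 in the second.

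Scaling by the epithelial genes of each library, which sets the hormones against the epithelium present, left some of the separations between groups, ended others and brought new ones. Per 1000 TPM of the 20 epithelial genes, Chga was 2.42 ± 0.296 (SD, n = 3) in all cells, 1.66 ± 0.308 in the G+M sort, 1.78 ± 0.305 in the G and 1.45 ± 0.512 in the M sort. Every library of the 3 sorts lay below every library of all cells on this scale, also for the G sort, which overlapped with all cells in TPM. The margin was narrow for the G sort, at up to 2.13 against 2.15 or more in all cells. The 20 genes include Fabp2, so the scale itself differed between groups. The mean TPM of Fabp2 was 1443 in all cells, 1333 in the G+M sort, 2996 in the G and 3510 in the M sort. A scale without Fabp2 was not tested. Pyy was 0.881 ± 0.173 in the G sort and 1.76 ± 0.372 in all cells, again without overlap. Gip was 2.47 ± 0.941 in the G sort and 1.98 ± 0.577 in all cells, where the libraries now overlapped. Cck in the G sort, at 0.413 to 0.898, also came to overlap with all cells, at 0.325 to 0.569. The same held in the G+M sort for Chgb, which reached 2.6 against at least 2.48 in all cells, and for Tph1, which reached 0.407 against at least 0.397. In other sorts these genes came to lie below all cells, with which they had overlapped in TPM. Tph1 reached 0.372 in the G sort, against at least 0.397 in all cells. Chgb reached 2.476 in the M sort, against at least 2.480, a narrow margin.

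Across the 12 intestinal libraries the members fell into a few patterns, given as Pearson r of log2(TPM + 1), which describes libraries that share groups and a fixed total. Chga and Chgb had r = 0.96, and Chga and Tph1 r = 0.90. These held within the 6 libraries of all cells and the G+M sort (0.98 and 0.93) and within the 6 of the G and M sorts (0.99 and 0.92). Chgb over Chga was 1.13 ± 0.0623 in all cells, 1.28 ± 0.0756 in the G+M sort, 1.33 ± 0.0051 in the G and 1.30 ± 0.0818 in the M sort (SD, n = 3). Sct followed Pyy within each set of 6 (0.78 and 0.94) but not over all 12 (0.26), since their ratio differed between the sets. Cck and Gip had 0.73 over all 12, 0.12 in the first set and 0.80 in the second. Chga and Sct had 0.92 in the first set and -0.64 in the second.

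**Figure D5:**
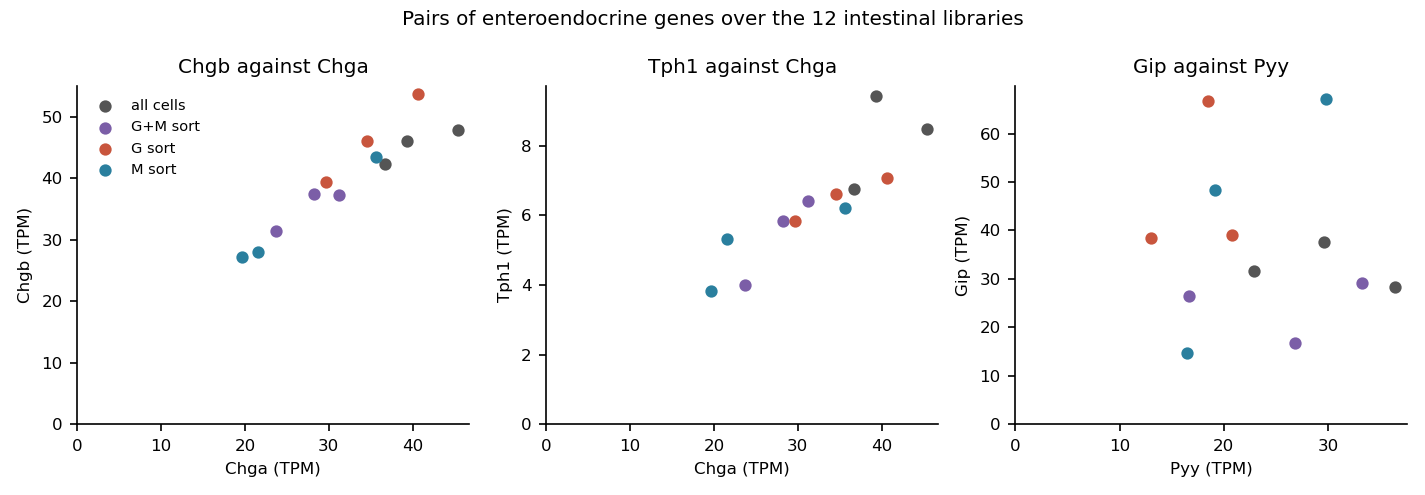
TPM of pairs of genes in the 12 intestinal libraries, coloured by group, with Chgb and Tph1 against Chga and Gip against Pyy; axes start at 0. Chgb lies close to a line with Chga (r = 0.96), Tph1 less closely (r = 0.90), and Gip and Pyy show no common line (r = 0.01).

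The genes most like Chga over the 12 libraries, among 10655 other genes with a mean TPM of at least 5, were Rragc and Paox, each at r = 0.93, then Mta3, Zc3h4, Gm22771, Phc2, Wrn, R3hdm2, Kdm2a and Sf3b6, down to 0.90. None of these 10 is on a list of endocrine genes, and Chgb, at 0.96, was closer than any. For the mean of the 10 members the closest were Zfp239 at 0.89, Mapk8 at 0.87, Smim4, Mob3c, Vps18, Gm12216, Ctage5, Chd2, 4833420G17Rik and 2010320M18Rik, down to 0.78. With 12 points in 4 groups, these ranks describe likeness of level only.

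The other transcription factors of the lineage were mostly at the low level of Neurod1. Of 16 genes, 13 were tested. Foxa2, a forkhead factor of gut endoderm, fell in the G sort against all cells (-1.04, limma, adjusted p = 2.98e-06), and Foxa2 and Foxa1 fell in the M sort (-1.42 and -1.12). Foxa2 rose in the G+M sort against the G sort, and both rose against the M sort. None was called between the G+M sort and all cells or between the G and M sorts. Foxa1 and Foxa2 are also made by other epithelial cells. The factors known mainly from endocrine cells, such as Nkx2-2, Insm1, Pax6, Rfx6 and Fev, had group means between 0.763 and 1.8 TPM and were called in none of the 6 comparisons, values seen before they were named. The call of Foxa2 in the G sort was lost without the third library of all cells, without the first G library, after rescaling and with only the 2 groups compared, and the last also ended its rise in the G+M against the G sort. Both calls of Foxa1 were lost after rescaling and without the first M library.

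Of the 8 other gut hormones tested out of 10, Insl5 was called in the 4 comparisons of a single sort with all cells or with the G+M sort. Nts, neurotensin of ileal N cells, had a mean TPM of 38.8 in all cells, 28.1 in the G+M sort, 47.7 in the G and 76.5 in the M sort. It was the only other one called, lower in the G+M than in the M sort (-1.34, limma, adjusted p = 7.36e-04), and that call was lost with the 12 libraries alone and with only the 2 groups compared. Sst, somatostatin of D cells, had 33.7, 27, 41.4 and 44.6 TPM in the same order, and Ghrl, ghrelin, 8.69, 7.46, 10.9 and 13.5.

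Within intestine, genes of prohormone processing and dense-core granules had their lowest sums in the single sorts. The mean summed TPM of the 18 was 98.6 in all cells, 87.5 in the G+M sort, 61.4 in the G and 49.3 in the M sort. That of the members was 223, 177, 228 and 210. Pam had the highest mean of the 18 in each of these groups. In the G sort of marrow the 18 had a mean sum of 136, so the sum is not particular to endocrine cells. Of the 18, 15 were tested, and 1 fell in the G and 2 in the M sort against all cells, with none called between the G+M sort and all cells. Pam, which amidates peptides, had a mean TPM of 32.7 in all cells, 33 in the G+M sort, 12.7 in the G and 9.96 in the M sort. It fell in the G sort (-1.32, limma, adjusted p = 0.00789) and the M sort (-1.63, adjusted p = 9.67e-04), and rose in the G+M sort against both. The call in the G sort was lost without the first G library and with only the 2 groups compared. The rise against the G sort was lost in both of these settings, with a pseudocount of 0.1, without the third G library and without the second G+M library. Syt7, a calcium sensor of exocytosis, fell in the M sort (-1.03, adjusted p = 1.04e-06), a call lost without the first library of all cells or of the M sort, after rescaling and with only the 2 groups compared. Cpe and Ptprn2 passed in none. Pam and Syt7 are made by other cells too. The median difference of the 15 from all cells was -0.30 for the G sort (-0.14 over all genes) and -0.50 for the M sort (-0.27).

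Receptors of these hormones were near 0, with 2 of 13 reaching the level needed for testing. Htr4, a serotonin receptor, had a mean TPM of 3.62 in all cells, 3.55 in the G+M sort, 1.08 in the G and 0.693 in the M sort. Npy1r, a receptor of the Pyy family, had 1.38, 1.43, 0.05 and 0.0633. Both fell in the G and the M sort against all cells, and both rose in the G+M sort against each single sort. For Htr4 the differences from all cells were -1.15 and -1.44 (limma, adjusted p = 6.25e-09 and 4.01e-11; its calls between the G sort and all cells or the G+M sort were lost with only the 2 groups compared), and for Npy1r -1.17 and -1.15 (adjusted p = 2.94e-12 and 3.83e-12). Of 10 nutrient and bile acid sensors 5 were tested, and none was called in the 6 comparisons. The sugar transporter Slc5a1 had 168, 165, 241 and 218 TPM, and Ffar4, a fatty acid receptor, 9.03, 8.29, 5.67 and 5.16. Of the 6 genes that handle serotonin or cleave the peptides, 5 were tested and none was called. Maoa, which breaks serotonin down, had 213, 212, 202 and 184 TPM, and Dpp4, which inactivates GLP-1 and Gip, 103, 92.5, 161 and 159.

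Markers of other cells that could carry some of these transcripts are given for comparison. Of 8 tuft cell genes, 7 were tested and 1 was called, Alox5ap, which leukocytes make as well and which was lower in the G+M than in the M sort. Their summed TPM was 101 to 191 in the 12 libraries. Neurons also carry the granins Chga and Chgb, and 5 of 8 enteric neuron genes were tested. Of these, 2 fell in the M sort against all cells, Uchl1 and Stmn2, and Uchl1 rose in the G+M against the M sort. The call of Stmn2 was lost without the third library of all cells and with only the 2 groups compared, which also ended that of Uchl1 in the M sort. The rise of Uchl1 was lost with the 12 libraries alone, with epithelial scaling and without the second or the third G+M library, or the first or the second M library. Their summed TPM was 8.01 to 22.3 in all cells, 7.44 to 12.6 in the G+M sort, 5.63 to 9.05 in the G sort and 4.06 to 6.65 in the M sort, the same direction as Chga in the M sort, and their part in it was not tested. Of 10 leukocyte and myeloid genes, 6 fell in the G sort, 1 rose and 2 fell in the M sort, and 4 fell in the G+M sort against all cells. Among the 10, Ly6g was picked after its values were seen. Its mean TPM was 21 in all cells, 34.4 in the G+M sort, 1.97 in the G and 1.51 in the M sort. Ly6c2 had 57, 56.6, 20 and 440 in the same order. None of the 20 epithelial genes was called in any of the 6 comparisons.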

How the data were processed

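Polyadenylated RNA of 39 mouse samples in 13 groups of 3 was measured by RNA-seq, with groups taken from the sample labels. Sorting into Trizol, the TruSeq stranded mRNA kit and 75 bp single reads on a NextSeq instrument are given per the labels' protocols. Per the submitters' processing notes, the tools were STAR 2.6.1c, with the build mm10, and RSEM; its version, annotation and strand setting were not found in the sources used here. The authors' deposited values are gene-level TPM, which keep no read counts, so the depth per sample is unknown.

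A gene was tested if 3 or more libraries held it at a TPM of 1 or more, which 18466 of 35653 expressed genes met, all 10 members among them. Values were analysed as log2(TPM + 1) with limma 3.58.1 in R 4.3.3. The model gave each group a mean over all 39 libraries, let the variance follow the level, and left 26 residual degrees of freedom for two-sided tests. In each of 9 comparisons, p-values of the 18466 genes were adjusted together (Benjamini-Hochberg). Calls required an adjusted p under 0.05 and a difference of at least 1. On simulated data with 18466 genes for the G sort against all intestinal cells, 93% of changes of 1.5 and 100% of changes of 3 on the log2 scale were recovered, with 3 false calls. The changed genes were drawn from those with a higher mean log2(TPM + 1) over the 39 libraries than any member has. The spread was that of the 39-library fit, so the recovery does not apply to the members within intestine. The fit of the 12 intestinal libraries alone had 8 residual degrees of freedom.

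The 10 members and the 13 other gene lists were chosen with earlier results of these data known. From each list, genes were named from the 4 with the highest mean TPM over the 12 intestinal libraries, and others are said to have been picked after their values were seen, or are all those called of a list. Likeness used Pearson r over the same libraries. Gene spans are from GENCODE M21 (GRCm38), promoters from RefSeq (GRCm38.p6). Summaries used Python 3.11.15, pandas 2.3.3 and numpy 2.4.6.

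Whether equal replicate numbers pair libraries was checked from the correlation, over genes, of deviations from group means. Each number passed 0.1 for the G+M sort against all intestinal cells (0.643, 0.59 and 0.628), the G against the M sort (0.599, 0.432 and 0.562) and the G+M against the G sort (0.189, 0.137 and 0.184). The G sort against all cells did not pass, at 0.234, 0.0895 and 0.211. Libraries of unequal number were not set beside these, and what a number marks is not in the labels. The pairing is therefore not established, and results that use it are descriptions. Alternatives were a pseudocount of 0.1, no filter, rescaling by median ratios, no fold minimum and only the groups compared. Others were a replicate block, each library left out, and, within intestine, the 12 libraries alone or scaled by the 20 epithelial genes. The replicate block gave each number the same effect within a kind of mouse, in intestine and spleen alike. Equal numbers of intestine and spleen did not all pass 0.1.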

Additional observations from a re-analysis of the deposited data

How the results depend on the processing

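All 10 members were called higher in intestine than in spleen in the 3 comparisons under each of the 12 alternatives run for each, as levels near 0 in spleen fixed in advance. Within intestine, the 0 members called in the 6 comparisons stayed 0 with a pseudocount of 0.1, no filter, only the 2 groups compared, the 12 libraries alone, epithelial scaling and the replicate block. With no fold minimum, 2, 5 and 2 members passed in the G, M and G+M sorts against all cells, 3 in the G against the M sort, and 1 and 1 in the G+M against the G and the M sort. The shares of all genes passing without the minimum are not given, so these counts show neither an excess nor the lack of one. Rescaling gave 1 in the G+M against the M sort, and leaving out each library gave 0 to 2 there (Sct, and Gip without the second M library) and 0 elsewhere. Under rescaling the median of all genes moved from 0.14 to -0.01 between the G and M sorts and from 0.15 to 0 between the G+M and M sorts, and 9 of the 60 differences of members changed sign. The replicate block left the count of members called at 0 within intestine and at 10 against spleen, and changed no other call of a member.

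The mean log2 hormone ratio was 0.56 in all cells, 0.26, 1.34 and 1.30 in the G+M, G and M sorts. Without Sct it was -0.34, -0.57, 0.62 and 0.27. As a difference of mean log2(TPM + 1) it was -0.28, -0.46, 0.54 and 0.42, and the order of both single sorts above the other groups held. With 39 libraries 14 of 60 member differences had an adjusted p under 0.05, against 1 with a pseudocount of 0.1 and 1 in the 12 libraries alone. Depth is unknown and 3 libraries a group limit what can be seen, so members near the size of 1 may fall on either side of the call.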
